A study of Arabidopsis thaliana with 5 samples.

Results

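JAZ1 to JAZ10, the jasmonate ZIM-domain repressors of Arabidopsis thaliana, were examined for binding of the GRAS transcription factor SCL28 and its AP2-type partner AtSMOS1. The 10 genes were taken by locus identifier, by a rule that reads no measured value but was set with earlier results of these data known, from 33056 genes annotated on chromosomes 1 to 5, of which 27444 are protein-coding. The study performed ChIP-Seq with an anti-GFP antibody on whole seedlings of the Col-0 ecotype, in lines expressing AtSMOS1-GFP (SNOS1-GFP in the labels) or SCL28-GFP (E1M-GFP in the labels), with 2 replicates each. Total chromatin of WT Col-0 seedlings without immunoprecipitation formed the input, with 1 sample. AtSMOS1-GFP was driven by its own promoter, whereas the text of the study names both the RPS5A promoter and the SCL28 promoter for SCL28-GFP. The labels give growth on half-strength MS agar under long days, whereas the methods of the study name continuous light. No hormone or other treatment is named for these samples, and no line with GFP alone was among them. Whole seedlings mix many cell types, so that binding in fewer cells and weaker binding per cell cannot be told apart.

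JAZ proteins bind the MYC transcription factors of the jasmonate pathway and, through the adaptor NINJA and the corepressor TOPLESS (TPL), keep MYC target genes inactive. When the hormone jasmonoyl-isoleucine accumulates, after wounding for instance, it joins JAZ proteins to the F-box receptor COI1, and the JAZ proteins are degraded. The freed MYC factors recognize the G-box, CACGTG, which reads the same on both strands, and JAZ genes are themselves among their targets. The pathway limits growth while it activates defense.

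The G-boxes within 1 kb upstream of the transcription start site (TSS) are shown because MYC factors are known to act on JAZ genes through this element, and because the peaks were placed against them. A G-box lay in this window of 8 of the 10 JAZ genes, and of 14.8% of all protein-coding genes. JAZ4 and JAZ10 had none there, and 3 genes, JAZ2, JAZ3 and JAZ6, had at least 2, compared with 2.67% of protein-coding genes. The sequences are given 5′ to 3′ on the strand of each gene, from the RefSeq copy of the TAIR10 genome (TAIR10.1), with each G-box in capitals.
JAZ1, chr1:6620909-6620962, plus strand: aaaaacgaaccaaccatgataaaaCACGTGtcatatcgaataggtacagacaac
JAZ2, chr1:28151088-28151141, minus strand: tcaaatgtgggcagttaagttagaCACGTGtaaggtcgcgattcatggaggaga
JAZ2, chr1:28150483-28150536, minus strand: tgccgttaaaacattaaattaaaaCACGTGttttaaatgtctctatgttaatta
JAZ3, chr3:6119558-6119639, plus strand: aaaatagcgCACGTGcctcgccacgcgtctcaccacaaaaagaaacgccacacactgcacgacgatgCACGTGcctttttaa
JAZ5, chr1:5958071-5958124, minus strand: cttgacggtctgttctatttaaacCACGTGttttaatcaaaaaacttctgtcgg
JAZ6, chr1:27277025-27277086, minus strand: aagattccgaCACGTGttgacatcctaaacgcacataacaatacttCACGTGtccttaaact
JAZ7, chr2:14572972-14573025, plus strand: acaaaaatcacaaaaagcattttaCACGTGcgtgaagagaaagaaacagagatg
JAZ8, chr1:10596338-10596351, plus strand: tttcCACGTGagag
JAZ9, chr1:26654139-26654192, plus strand: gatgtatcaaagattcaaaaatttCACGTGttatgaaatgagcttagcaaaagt

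The 3 highest AtSMOS1-GFP peaks of the family, at JAZ1, JAZ3 and JAZ6, lay upstream of the TSS, and the 81 bp centred on their summits held no G-box. They are shown for this contrast with the preceding sequences, with the summit taken from replicate 1 at JAZ1 and JAZ3 and from replicate 2 at JAZ6.
JAZ1 summit, chr1:6621073-6621153, plus strand: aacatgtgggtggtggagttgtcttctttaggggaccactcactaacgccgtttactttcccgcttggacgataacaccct
JAZ3 summit, chr3:6118557-6118637, plus strand: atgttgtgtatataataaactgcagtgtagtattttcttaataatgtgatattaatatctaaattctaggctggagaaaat
JAZ6 summit, chr1:27278254-27278334, minus strand: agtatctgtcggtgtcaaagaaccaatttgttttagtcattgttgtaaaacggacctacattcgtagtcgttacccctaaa

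Each sample was deposited as a list of peaks with a position on TAIR10, a summit and a fold enrichment, the ratio at the summit over the local background that the peak caller estimated. The nuclear chromosomes carried 5438 and 6934 peaks of AtSMOS1-GFP, 488 and 396 of SCL28-GFP and 5695 of the input, with median fold enrichments between 3.34 and 4.50. In replicate 2, the names given to single peaks are swapped between the proteins, against the labels of the samples. By position, the list labelled AtSMOS1-GFP replicate 2 overlapped AtSMOS1-GFP replicate 1 at 61.1% of its peaks and SCL28-GFP replicate 1 at 4.53%, and the list labelled SCL28-GFP replicate 2 overlapped SCL28-GFP replicate 1 at 90.9% and AtSMOS1-GFP replicate 1 at 62.6%. The labels were therefore used, and counts of replicate 1 alone are given beside those of both replicates. The lists hold no read counts, but the reporting summary of the study gives the reads of each ChIP sample. They were most for SCL28-GFP replicate 2 and fewest for AtSMOS1-GFP replicate 1, and none are given for the input. The lists were used as deposited, without adjustment for this depth. A gene without a peak is one where none passed the caller's threshold.

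AtSMOS1-GFP had a peak within 2 kb of 8 of the 10 JAZ genes in replicate 1 and of 8 in replicate 2, and these were the same 8 genes, all except JAZ4 and JAZ8. A peak within 2 kb was found for 24.5% of protein-coding genes in replicate 1, for 30.8% in replicate 2 and for 21.1% in both. SCL28-GFP had a peak at 1 JAZ gene, JAZ3, in replicate 1 and at none in replicate 2, where 2.77% and 2.27% of protein-coding genes had one and 2.07% had one in both. The input had peaks at 2 JAZ genes, JAZ3 and JAZ8, compared with 27.9% of protein-coding genes. Since the lists hold peaks and no counts, and each protein has only 2 lists, these counts are descriptions beside the share of all genes, without a test.

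Longer genes have a wider window for peaks, and the JAZ genes were of ordinary length, with a median of 2324 bp and a range of 923 to 3338 bp, compared with a median of 2078 bp for protein-coding genes. The share of protein-coding genes with an AtSMOS1-GFP peak in both replicates was 13.0% for genes up to 1 kb, the class of JAZ7 and JAZ8, and 19.2% for those between 1 and 2 kb, the class of JAZ1 and JAZ2. It was 24.2% between 2 and 3 kb, where JAZ5, JAZ6, JAZ9 and JAZ10 fall, and 25.9% between 3 and 4 kb, where JAZ3 and JAZ4 fall. The JAZ genes with a peak were 1 of 2, 2 of 2, 4 of 4 and 1 of 2 in these classes.

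**Figure D1:**
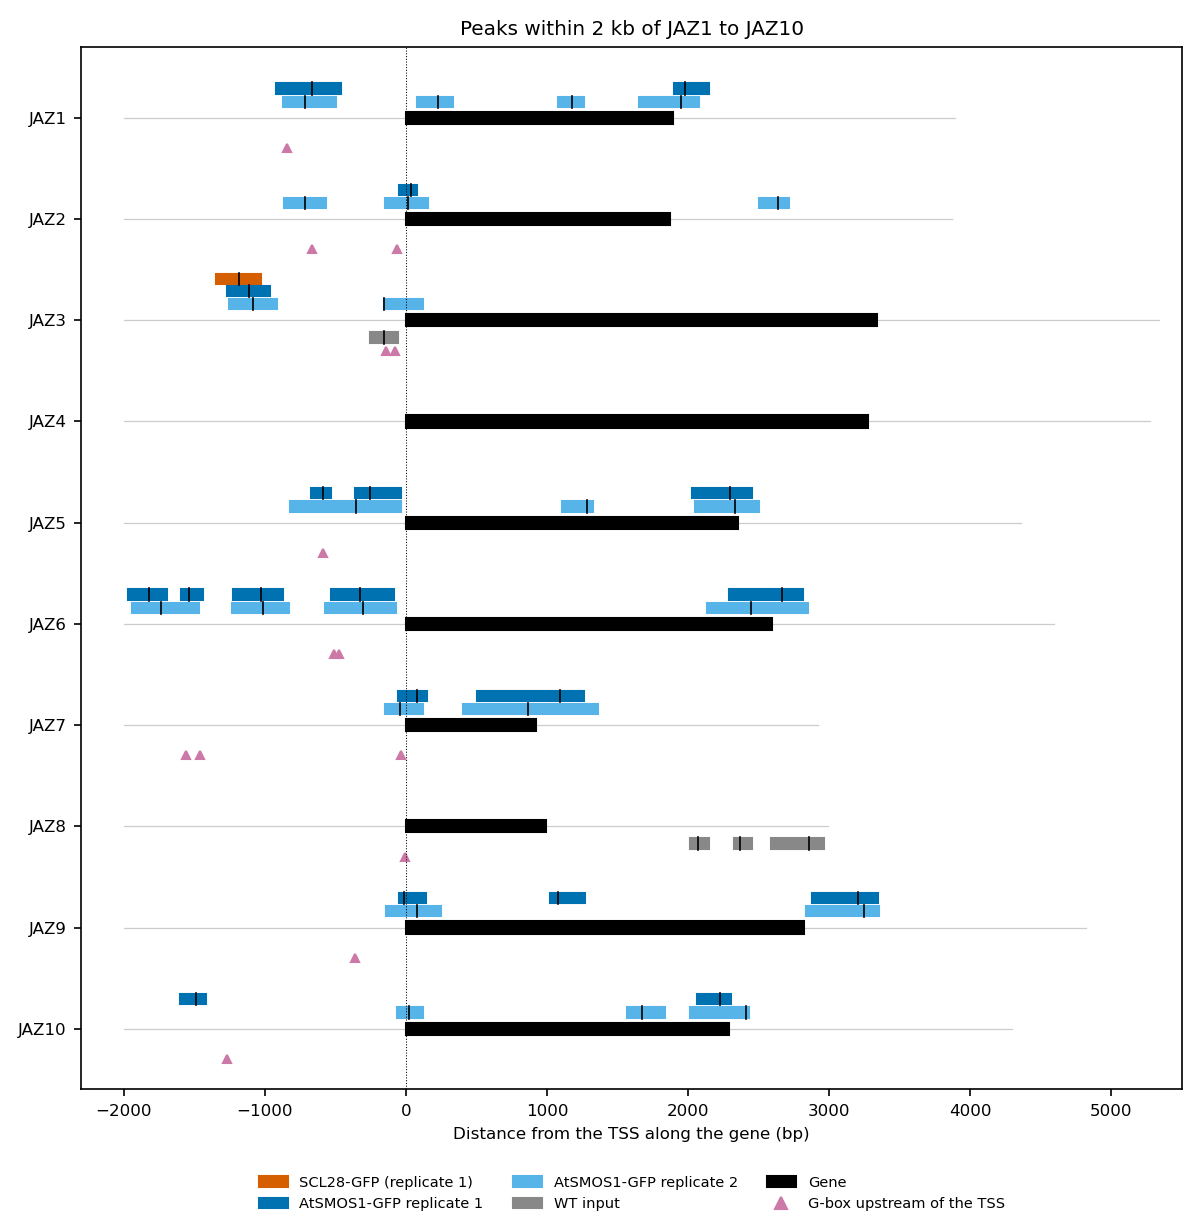
Peaks within 2 kb of JAZ1 to JAZ10, drawn to scale along each gene with 0 at the TSS (x axis, bp). For each gene, coloured boxes above the black gene are the ChIP peaks of SCL28-GFP (replicate 1) and of both AtSMOS1-GFP replicates, grey boxes below it are input peaks, black ticks are summits and triangles are G-boxes upstream of the TSS. AtSMOS1-GFP peaks occur at 8 genes, JAZ4 and JAZ8 have none, and the single SCL28-GFP peak lies upstream of JAZ3.

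Within 2 kb of the 10 genes, AtSMOS1-GFP replicate 1 had 19 peaks and replicate 2 had 23, which merged into 25 sites. Both replicates had a peak at 15 of the sites, only replicate 1 at 2 and only replicate 2 at 8. Of the 19 peaks of replicate 1, 89.5% overlapped a peak of replicate 2, compared with 81.1% of all AtSMOS1-GFP peaks of that list. Conversely, 65.2% of the 23 peaks of replicate 2 overlapped a peak of replicate 1, compared with 61.1% of all. The replicates therefore shared JAZ sites about as often as other sites. At the 15 shared sites, the distance between summits had a median of 49 bp and a range of 12 to 233 bp, and its median over all 4408 overlapping peaks was 50 bp.

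JAZ1 and JAZ2 carry the paired names TIFY10A and TIFY10B in the annotation, and JAZ1 is a repressor whose hormone-dependent binding to COI1 is well known. JAZ1 (AT1G19180, chr1:6621777-6623668, plus strand) had an AtSMOS1-GFP peak upstream, at chr1:6620857-6621315, with summits at −664 and −713 bp from the TSS and fold enrichments of 5.67 and 5.60 in replicates 1 and 2. A second site in both replicates had its summits 85 and 62 bp past the transcription end site (TES), at 3.25- and 3.30-fold. Replicate 2 alone added a peak in the 5′ UTR at 3.57-fold and one in a coding exon at 2.64-fold. The upstream peak of JAZ1 was the highest of the family in replicate 1 and differed little between replicates.

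JAZ2 (AT1G74950, chr1:28148574-28150446, minus strand), known for its part in the jasmonate response of stomatal guard cells, had 1 site in both replicates, over the TSS, with summits at 39 and 14 bp and fold enrichments of 2.74 and 3.12. Replicate 2 alone had a peak at −718 bp with 2.62-fold and one 762 bp past the TES with 4.22-fold, and this downstream peak was nearest to AT1G74940. The highest value of JAZ2 thus came from a site of replicate 2 alone. Just outside the 2 kb limit, at 2335 and 2411 bp past JAZ2, AtSMOS1-GFP peaks of 5.75- and 5.45-fold and SCL28-GFP peaks at 2555 and 2579 bp with 4.13- and 3.64-fold lay on AT1G74940, the next gene. They were not counted for JAZ2.

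JAZ3 and JAZ4, named TIFY6B and TIFY6A, differed in whether they had a peak. JAZ3 (AT3G17860, chr3:6119707-6123044, plus strand), the gene of the jasmonate-insensitive jai3 mutant, had a shared AtSMOS1-GFP site at chr3:6118440-6118791, with summits at −1110 and −1085 bp and fold enrichments of 5.11 and 5.80. The only SCL28-GFP peak of the family lay on the same site, with its summit at −1185 bp, a fold enrichment of 3.29 and a −log10 q of 6.75. It shared 242 bp with the AtSMOS1-GFP peak of replicate 1 and 228 bp with that of replicate 2, with summits 75 and 100 bp apart. SCL28-GFP replicate 2 had no peak there, and its nearest was 25780 bp away.

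A further AtSMOS1-GFP peak at JAZ3, found in replicate 2 alone, covered the G-boxes near the TSS with a summit at −152 bp and only 1.80-fold enrichment. The input had a peak with the same summit, at 3.97-fold, so that this AtSMOS1-GFP peak is not separated from the input. JAZ4 (AT1G48500, chr1:17931390-17934662, plus strand) had no peak in any of the 5 lists, and the nearest AtSMOS1-GFP peaks lay 10416 and 10337 bp away.

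JAZ5 and JAZ6 are the pair TIFY11A and TIFY11B, and both had AtSMOS1-GFP peaks upstream and at the 3′ end in both replicates. At JAZ5 (AT1G17380, chr1:5955155-5957511, minus strand), replicate 1 had peaks at −253 and −588 bp with 2.89- and 2.96-fold, and replicate 2 had a single peak across both, with its summit at −355 bp and 2.94-fold. A 3′ UTR site followed, with summits 58 and 22 bp before the TES and 3.43- and 3.71-fold enrichment. Replicate 2 alone had a peak in a coding exon at 2.63-fold. The JAZ5 sites were thus numerous and low.

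JAZ6 (AT1G72450, chr1:27273968-27276562, minus strand) had the most peaks of the family, 5 in replicate 1 and 4 in replicate 2, and no site of 1 replicate alone. The farthest upstream site, at chr1:27278002-27278528, had peaks at −1535 and −1823 bp with 4.20- and 4.56-fold in replicate 1 and 1 peak at −1732 bp with 6.25-fold in replicate 2, the highest JAZ value in either list. The next site, at −1026 and −1014 bp, had 4.68- and 4.18-fold, and the site at −322 and −302 bp had 4.12- and 3.32-fold. At the 3′ end, the summits lay 70 bp past and 151 bp before the TES with 4.61- and 4.33-fold. JAZ6 was the only JAZ gene with at least 4 AtSMOS1-GFP peaks in both replicates, a count reached by 0.211% of protein-coding genes.

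JAZ7 and JAZ8, the pair TIFY5B and TIFY5A, are the shortest genes of the family, and JAZ8 is known as a repressor that resists jasmonate-induced degradation. JAZ7 (AT2G34600, chr2:14573030-14573952, plus strand) had a site over the TSS, with summits at 80 and −42 bp and fold enrichments of 4.74 and 3.61. A second, wide site ran over the 3′ end, chr2:14573435-14574394, with summits 167 bp past and 59 bp before the TES and 4.55- and 4.33-fold. Both sites were found in both replicates, and together they covered most of this short gene.

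JAZ8 (AT1G30135, chr1:10596352-10597341, plus strand) had no AtSMOS1-GFP or SCL28-GFP peak, with the nearest AtSMOS1-GFP peaks 14651 and 8824 bp away. The input, in contrast, had 3 peaks 1080, 1378 and 1868 bp past its TES, at 4.13-, 3.51- and 6.61-fold, all nearest to AT1G30140. JAZ8 was thus the only member with input peaks and no ChIP peak.

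JAZ9 (AT1G70700, chr1:26654529-26657350, plus strand; TIFY7) had a site over the TSS, with summits at −14 and 82 bp and 3.21- and 3.80-fold enrichment. A stronger site, at chr1:26657367-26657882, had summits 386 and 422 bp past the TES with 4.44- and 4.08-fold. Replicate 1 alone had a peak in an intron at 3.29-fold. JAZ10 (AT5G13220, chr5:4218786-4221077, plus strand; TIFY9), known for splice forms that are more stable, had 1 site in both replicates, at the 3′ end, with summits 65 bp before and 116 bp past the TES and 3.87- and 2.32-fold. Its other peaks were found in 1 replicate each, at −1484 bp with 2.96-fold in replicate 1, nearer to AT5G13210 than to JAZ10, and at 20 bp with 2.87-fold and in an intron with 3.22-fold in replicate 2. At JAZ10, as at JAZ2 and JAZ3, the replicates agreed on a single site.

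**Figure D2:**
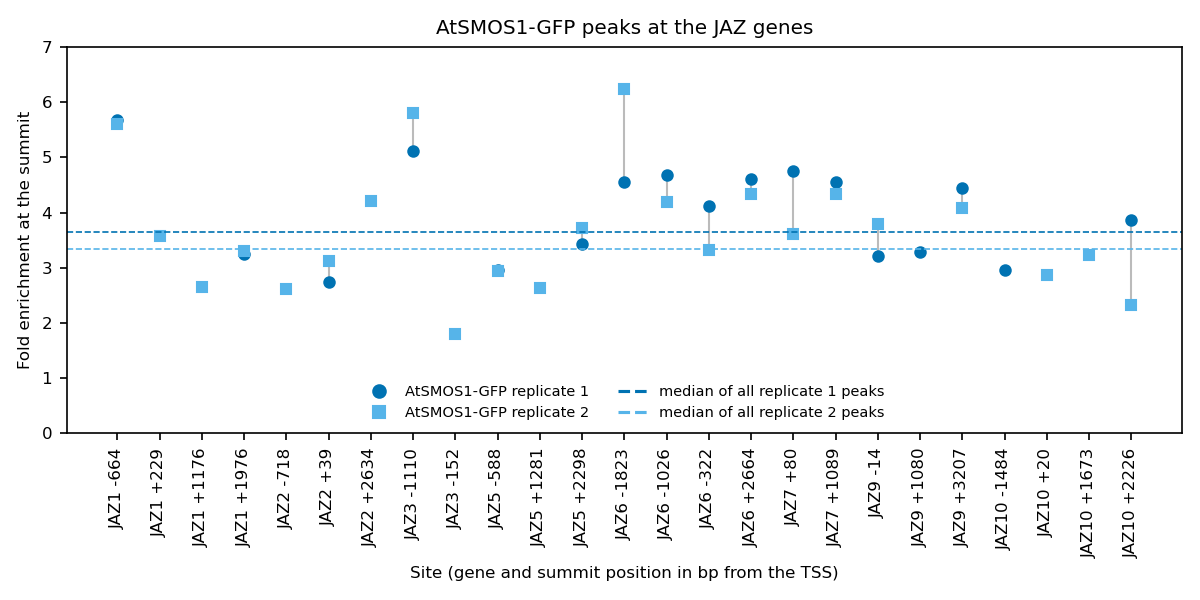
Fold enrichment at the summit (y axis) of the 25 AtSMOS1-GFP sites at JAZ genes, in order of gene and position (x axis, summit in bp from the TSS, from replicate 1 where it had a peak). Circles are replicate 1 and squares are replicate 2, a line joins the replicates of a shared site, the higher peak is drawn where a replicate had 2 at a site, and dashed lines are the medians of all peaks of each list, 3.65 and 3.34. Values run between 1.80 and 6.25, and the highest are the upstream sites of JAZ6, JAZ3 and JAZ1.

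The highest AtSMOS1-GFP fold enrichment within 2 kb of a gene, averaged over the 2 replicates, ordered the JAZ genes as follows. The highest peak was taken in each replicate by itself. At JAZ2, JAZ6, JAZ7 and JAZ10, it lay at different sites in the 2 replicates. The SD of these genes is therefore not the spread of replicates at a single site. JAZ1 stood first with 5.63 ± 0.0514 (SD, n = 2), followed by JAZ6 with 5.46 ± 1.10 and JAZ3 with 5.46 ± 0.491. These were the genes with strong peaks upstream of the TSS, and their replicate values overlapped, so that their order is not resolved. JAZ7 followed with 4.54 ± 0.290 and JAZ9 with 4.26 ± 0.258, again with overlapping values. The lowest were JAZ5 with 3.57 ± 0.198, JAZ10 with 3.55 ± 0.455 and JAZ2 with 3.48 ± 1.04, which overlapped each other. Between neighbours in this order, the values of the replicates were apart only between JAZ3 and JAZ7 and between JAZ9 and JAZ5.

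Among the 5778 protein-coding genes with an AtSMOS1-GFP peak in both replicates, JAZ1 stood at percentile 92.0 of this mean, JAZ3 and JAZ6 at 89.7, JAZ7 at 74.1 and JAZ9 at 65.1. JAZ5, JAZ10 and JAZ2 stood at 34.1, 32.9 and 29.8. The median of the 8 JAZ genes was 4.40 (quartiles 3.57 and 5.46), compared with 3.90 (3.39 and 4.57) over the 5778 genes. The JAZ peaks were thus spread over the range of AtSMOS1-GFP peaks and did not reach its extremes, since the highest fold enrichments in the lists were 25.0 and 29.1. Only peaks past the caller's threshold enter these values, so that they describe genes with a peak and not the family as a whole.

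At some of the JAZ genes, AtSMOS1-GFP peaks came in groups or lay at both ends of the gene. At least 2 peaks in both replicates were found at 6 JAZ genes, JAZ1, JAZ5, JAZ6, JAZ7, JAZ9 and JAZ10, compared with 4.86% of protein-coding genes, and at least 3 at 2 JAZ genes, JAZ5 and JAZ6, compared with 1.09%. A summit within 500 bp of the TES was found in both replicates at 6 genes, those with at least 2 peaks, compared with 4.27% of protein-coding genes. A summit within 500 bp of the TSS was found in both at 5 genes, JAZ2, JAZ5, JAZ6, JAZ7 and JAZ9, compared with 7.17%. Summits at both ends, in both replicates, occurred at JAZ5, JAZ6, JAZ7 and JAZ9, compared with 0.991% of protein-coding genes and with 0.989% of those longer than 1 kb. JAZ7, at 923 bp, is shorter than this, and its windows around the TSS and the TES meet.

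These counts by number and place of peaks were chosen after the peaks had been seen, and they carry no test. They depend on weak peaks, because with a −log10 q of at least 5 the genes with at least 2 peaks in both replicates were 2 (1.22% of protein-coding genes) and those with summits at both ends were 2 (0.244% of protein-coding genes). An upstream summit within 1 kb of the TSS was found in both replicates at JAZ1, JAZ5 and JAZ6, that is 3 of 10 compared with 6.76%. With each replicate taken by itself, it was found at 4 in replicate 1 and at 6 in replicate 2, compared with 9.12% and 11.8%. A summit inside the gene was found in both at 5, JAZ2, JAZ5, JAZ7, JAZ9 and JAZ10, compared with 3.97%. In replicate 1 alone, the genes with a summit inside the gene, near the TSS, near the TES and at both ends were the same 5, 5, 6 and 4, compared with 5.65%, 9.27%, 5.50% and 1.40% of protein-coding genes. At least 2 peaks were found there at the same 6 genes, at least 3 at 3 (with JAZ9 added) and at least 4 at JAZ6, compared with 6.30%, 1.73% and 0.426%. With a −log10 q of at least 5, replicate 1 alone gave JAZ6 and JAZ7 both for at least 2 peaks and for both ends, compared with 1.42% and 0.332%.

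**Figure D3:**
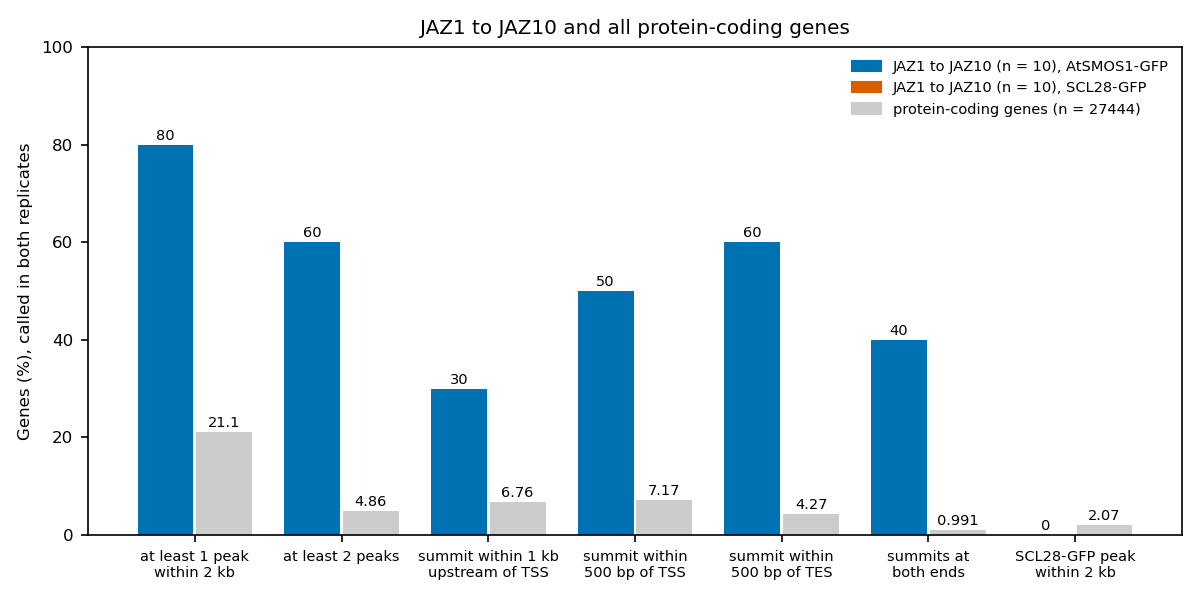
Share of genes (y axis, percent) that met each rule in both replicates, for JAZ1 to JAZ10 (coloured bars, left, n = 10) and all protein-coding genes (grey bars, right, n = 27444). Each JAZ gene is 10 percentage points, and the bars have no error because each is a count of genes. AtSMOS1-GFP peaks were found at 8 JAZ genes, summits at both ends at 4, and SCL28-GFP peaks at none.

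By annotated feature, 10 of the 19 summits of replicate 1 lay upstream of the TSS, 4 downstream of the TES, 2 in a 5′ UTR, 2 in a 3′ UTR and 1 in an intron. Replicate 2 had 9 upstream, 4 downstream, 4 in a 5′ UTR, 3 in a 3′ UTR, 2 in a coding exon and 1 in an intron. None of the 19 peaks of replicate 1 and 1 of the 23 of replicate 2, that over the JAZ3 TSS, overlapped an input peak. The shares of all AtSMOS1-GFP peaks in these places or over input peaks are not given here, so that these counts only describe the JAZ peaks.

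Some of these sites lay on or nearer to another gene. JAZ was the nearest gene for 9 of the 19 peaks in replicate 1 and for 14 of the 23 in replicate 2. The upstream peak of JAZ1 overlapped the long non-coding RNA gene AT1G05473, and its 3′ peak overlapped AT1G19190. At JAZ6, the site nearest the TSS lay on the long non-coding RNA gene AT1G09307, the farthest summits were nearest to AT1G72460, and the 3′ site overlapped AT1G72440 (EDA25). The 3′ site of JAZ5 overlapped AT1G17370 (UBP1B), and the upstream site of JAZ3 was nearer to the long non-coding RNA gene AT3G03555 than to JAZ3. When each peak was given to its nearest gene alone, 5 JAZ genes had one in both replicates, JAZ2, JAZ5, JAZ7, JAZ9 and JAZ10, compared with 11.3% of protein-coding genes. JAZ1, JAZ3 and JAZ6, the genes with the highest values, were lost by this rule. The lists do not show which gene a site serves.

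A stricter threshold, or a reach of 500 bp, kept fewer of the 8 genes. With a −log10 q of at least 5, peaks within 2 kb in both replicates were found at JAZ1, JAZ3, JAZ6, JAZ7 and JAZ9, that is 5 of 10, compared with 9.91% of protein-coding genes. Within 500 bp of the gene, 7 of 10 had a peak in both, without JAZ3, compared with 12.7%. Replicate 1 alone, a setting chosen after seeing the data, gave the same 5 genes by the threshold, the same 7 genes within 500 bp and the same 5 genes by the nearest gene, compared with 10.9%, 15.3% and 13.8% of protein-coding genes.

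Of the 11 G-boxes within 1 kb upstream of JAZ genes, 5 lay in AtSMOS1-GFP peaks of both replicates, those of JAZ1, JAZ5 and JAZ7 and both of JAZ6. This was 45.5%, compared with 9.82% of the 4421 G-boxes upstream of protein-coding genes. Another 4, those of JAZ2 and JAZ3, lay in a peak of replicate 2 alone, so that 9 of 11 (81.8%) lay in a peak of either replicate, compared with 20.2%. The JAZ8 and JAZ9 boxes lay in none. The input covered 2 of the 11 (18.2%), both at JAZ3, compared with 1.70%. JAZ genes also had more AtSMOS1-GFP peaks than most genes, and the part of this number in the share of covered G-boxes was not tested.

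The 2 replicates differed in how often a G-box lay near the summit. In the 200 bp centred on the summit, a G-box was found in 2 of the 19 JAZ peaks of replicate 1, at JAZ5 and at the 3′ end of JAZ10, compared with 14.0% of all peaks of that list. In replicate 2, it was found in 7 of 23, 3 of them at JAZ2 and 1 each at JAZ1, JAZ3, JAZ7 and JAZ9, compared with 15.0%. In the input list, 5.39% of peaks had one. Over the whole peak, the counts were 6 of 19 and 11 of 23, compared with 16.3% and 19.6%. The summit of replicate 1 fell inside the JAZ5 G-box, 2 bp from its middle, but that of replicate 2 was 231 bp from it, and the JAZ7 summits were 112 and 10 bp from the middle of its box. At JAZ1, the middle of the box lay 178 and 129 bp from the summits, inside the peak and outside the printed 81 bp. The distances in replicates 1 and 2 were closer at the JAZ2 box near the TSS, 102 and 77 bp. At the JAZ6 boxes they were 189 and 209 bp, and 153 and 173 bp. Some of the replicate 2 peaks with a G-box near the summit had no counterpart in replicate 1. These were the ones at JAZ1 and JAZ3 and those at JAZ2 away from its TSS. No JAZ site had a G-box in the 200 bp at the summit in both replicates.

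The motif of 12 bp that the study derived from sites common to SCL28 and AtSMOS1 was searched as well, as an exact match on both strands, and no match to it can contain a G-box. None of the 19 and none of the 23 AtSMOS1-GFP peaks at JAZ genes had it in the 200 bp at the summit, compared with 1.05% and 0.923% of all AtSMOS1-GFP peaks and with 20.9% and 25.3% of all SCL28-GFP peaks. The SCL28-GFP peak at JAZ3 had none either. With 1 mismatch allowed, it was found in 1 JAZ peak of each replicate, over the JAZ2 TSS, compared with 5.70% and 5.65% of all AtSMOS1-GFP peaks. A motif that is absent from these windows says nothing of what the factors bind.

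For JAZ1, the gene with the highest mean, the genes most alike over the 4 ChIP lists were AT1G05473, AT1G08925 and AT1G19170, each at a distance of 0. All are its neighbours and were within 2 kb of the same upstream peak, so that the likeness reflects a shared peak.

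The other genes of the pathway were taken from a list of 45 genes. AtSMOS1-GFP had a peak within 2 kb of 23 of them in replicate 1, of 24 in replicate 2 and of 20 in both, compared with 24.5%, 30.8% and 21.1% of protein-coding genes. SCL28-GFP had one at 2, 1 and 1, compared with 2.77%, 2.27% and 2.07%. The input had one at 18 of the 45, compared with 27.9%. Without the AtSMOS1-GFP peaks that share a base with one of the input, the count in both replicates was again 20. Among the genes of perception and repression, 3 of 7 had AtSMOS1-GFP peaks in both replicates, NINJA, TPL and AT3G22275, the last at different places in the 2 replicates. Of the transcription factors, 4 of 6 had them, the activators MYC3 and MYC4 and the repressors JAM1 and JAM2. MYC2, the best known activator, had a peak in replicate 1 alone, at 2.82-fold, and the receptor gene COI1 had none in either ChIP, both picked out after their values had been seen. Of the genes of jasmonate synthesis, 7 of 13 had peaks in both, LOX2, LOX3, AOS, AOC1, AOC3, OPR3 and ACX1. Of the genes listed with jasmonate turnover, 5 of 8 had them, CYP94B3, CYP94C1, ST2A, AT5G05600 and AT2G38240. The 2 response genes VSP1 and VSP2 had none, and neither had the 8 listed last, among them the PPD and ZIM genes of the TIFY family, in both replicates.

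The 6 highest of these genes by mean AtSMOS1-GFP fold enrichment were AT5G05600, MED25, ST2A, CYP94B3, TPL and AOS. AT5G05600 had 5.68 and 4.58 in replicates 1 and 2, and MED25, a Mediator subunit that works with MYC2, had 5.05 and 4.61. TPL, the corepressor that JAZ proteins recruit, had 4.76 and 4.45 upstream of its TSS, and CYP94B3, which oxidizes jasmonoyl-isoleucine, had 5.32 and 4.03. AOS, an enzyme of jasmonate synthesis, had 4.05 and 5.02, but at different sites, 66 bp from its TSS in replicate 1 and 419 bp past its TES in replicate 2. This peak of replicate 1 overlapped an input peak. At the site past the TES, replicate 1 had 3.38. None of these means was above those of JAZ1, JAZ3 and JAZ6.

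ST2A, a sulfotransferase that acts on hydroxylated jasmonate, was the only gene of the list with SCL28-GFP peaks in both replicates, at 5.34- and 5.17-fold with summits at −2179 and −2178 bp, compared with 3.29-fold in replicate 1 alone at JAZ3. The highest AtSMOS1-GFP peaks at ST2A were at different sites, at 105 bp with 4.88-fold in replicate 1 and at −1834 bp with 4.59-fold in replicate 2. At the upstream site, replicate 1 of AtSMOS1-GFP had 3.87-fold, with its summit at −1883 bp. At the site near the TSS, replicate 2 of AtSMOS1-GFP had 3.70-fold, with its summit at 149 bp. SCL28-GFP also had peaks at this site in replicates 1 and 2, with summits at 147 and 64 bp and 3.25- and 4.42-fold. The peaks of the 4 lists overlapped at both sites. Among JAZ1 to JAZ10 and the 45 genes, ST2A was therefore the only gene with peaks of both proteins in all 4 lists.

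**Figure D4:**
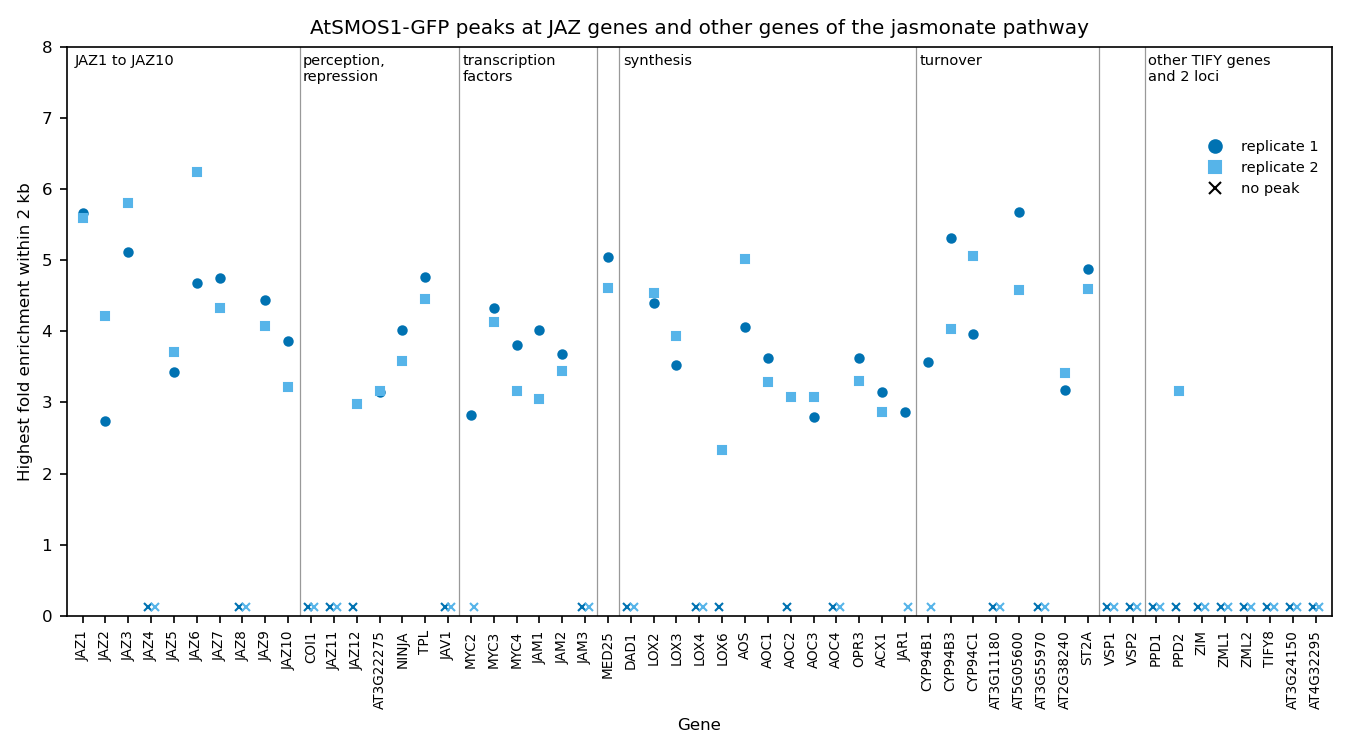
Highest AtSMOS1-GFP fold enrichment within 2 kb (y axis) of JAZ1 to JAZ10, left, and of the 45 other pathway genes (x axis), grouped by role, with MED25 and the response genes VSP1 and VSP2 in the narrow unlabelled columns. Circles are replicate 1, squares replicate 2 and crosses mark a replicate without a peak. The JAZ genes with peaks reach 6.25 and the other genes 5.68.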

How the data were processed

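The 5 lists of peaks that the authors deposited, 1 for each AtSMOS1-GFP, SCL28-GFP and WT input sample, were analyzed. Per the labels, reads were trimmed with Trimmomatic 0.38, aligned to TAIR10 with Bowtie2 2.3.5, handled with SAMtools 1.9 and deepTools, and MACS2 2.2.7.1 gave 1 list per sample at a q value cutoff of 0.05, so that replicates were not pooled. The reporting summary names the input as the control of the caller. The study gives differing accounts of the aligner, of sharp or broad peak calling and of the fragment size, and the control for the input list itself is not given in the sources used here.

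The fold enrichment is a ratio, as deposited, of the signal at a summit to its local background by the caller. The −log10 p and −log10 q values were deposited as the authors' caller gave them, and the deposited score restates the −log10 q and was not used. Starts were converted to 1-based positions. Peaks on organelle genomes (187) were left out.

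Peaks were assigned to every gene whose body, extended by 2 kb on either side, shared at least 1 bp with them, in the TAIR10.1 annotation without 4843 pseudogenes. TSS and TES are the annotated gene ends, and features come from the first transcript model. The G-box and the motif were searched in the genome as exact matches on both strands in 200 bp around the summit. Python 3.11.15, numpy 2.4.6, scipy 1.17.1 and matplotlib 3.10.9 were used, and the functions were tested on simulated data. No test was made, since the lists hold no counts and each protein has 2 lists.

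The 10 JAZ genes and the pathway list were chosen with earlier results of these data known. All JAZ genes are named with all their peaks, pathway genes are named where both replicates had a peak, the 6 highest with values, and genes that overlap or lie closer to a JAZ peak are named beside it. Alternatives were another reach, a −log10 q of at least 3 or 5, peaks overlapping the input left out, the summit or the nearest gene as the rule, each replicate left out, overlapping replicate peaks, other promoter lengths, the peak midpoint, other motif windows, 1 mismatch and protein-coding genes alone.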

Additional observations from a re-analysis of the deposited data

How the results depend on the processing

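The 8 JAZ genes with an AtSMOS1-GFP peak in both replicates became 5 with the nearest gene alone and 5 at a stricter q limit (−log10 q at or above 5), and were 7 or 8 under the other alternatives, each replicate left out included (8 and 8). The count for SCL28-GFP, 0 in both replicates, was 1 with a reach of 3 kb (JAZ2), and 0 and 1 with one replicate left out. The input count of 2 was 1 with a reach of 1 kb, 1 with 500 bp and 1 with the nearest gene alone. The pathway genes with AtSMOS1-GFP peaks, 20, were 12 at the stricter q limit, and those with SCL28-GFP peaks, 1, were between 1 and 2 with one replicate left out. JAZ genes with an upstream summit within 1 kb, 3, were between 4 and 6 in single replicates. JAZ peaks of replicate 1 with a G-box, 2, were 6 over the whole peak, 4 in 300 bp and 7 in replicate 2, and those with the SCL28/AtSMOS1 motif, 0, were 1 with 1 mismatch. Among alternatives chosen after seeing the data, the 4 JAZ genes with summits at both ends were between 4 and 6 in single replicates, 1 at 250 bp and 2 at the stricter q limit, and the 6 with at least 2 peaks were between 6 and 8 in single replicates and 2 at the stricter q limit. No share of protein-coding genes was computed at 250 bp or for the other reaches of SCL28-GFP and the input. Nor was one computed for replicate 2 alone by both ends or by at least 2 peaks, which gave the counts of 6 and 8. The share of all peaks with a G-box in 300 bp was not computed either, so that these counts have no background beside them. The share of all genes with an AtSMOS1-GFP peak in both replicates moved with the rule as well, between 9.71% and 26.0%. For the highest fold enrichment per JAZ gene, only JAZ2 moved beyond its SD, to 5.60 with a reach of 3 kb, where the peak on AT1G74940 entered. Leaving out 1 replicate cannot move a mean of 2 values beyond their SD, so that this setting could not show a change. At JAZ6, a reach of 1 kb lowered the mean from 5.46 to 4.51, which is within its wide SD of 1.10. JAZ2, JAZ5 and JAZ10 had no peak with a −log10 q of at least 5 in both replicates.

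No paired analysis was possible because the values are peaks in lists and no result comes from a test. The input is the only control and has 1 sample, so that enrichment by the antibody without the tagged protein was not tested. Peaks below the caller's threshold are not in the lists, so that JAZ4 and JAZ8 are genes without a called peak, not genes shown to lack binding.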
